A study of Homo sapiens with 6 samples.

Results

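The subunits of the oxidative phosphorylation machinery were examined in A549 cells, an established line from a human lung adenocarcinoma. Members were all protein-coding genes whose symbols follow the naming of subunits of respiratory complexes I to IV or of the ATP synthase (complex V). They numbered 101 of the 32192 genes in the count table. Of these, 13 are encoded by the mitochondrial genome (symbols beginning with MT-) and 88 by nuclear chromosomes. The APEX1-OE group (3 libraries) was transfected with APEX1 cloned into the plasmid pIRES-hrGFP-1a, and the Ctrl group (3 libraries) received the control plasmid. Both groups were the same cell line in the same medium, and polyadenylated RNA was sequenced from stranded libraries. Nothing in the labels says that the 3 libraries of a group came from separate cultures, so the p values below measure only the spread between these libraries, which may be technical.

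Complexes I to IV pass electrons from NADH and succinate to oxygen and, except for complex II, pump protons across the inner mitochondrial membrane, and complex V uses that gradient to make ATP. Every complex other than complex II is built from subunits of both genomes, so mitochondrial transcription and nuclear transcription have to supply parts of the same machines. APEX1 is a base excision repair endonuclease with a redox function, and a share of it is known to enter mitochondria.

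APEX1 itself (ENSG00000100823.11) served to check the labels. Its level was 618, 680 and 768 FPKM in APEX1-OE replicates 1, 2 and 3, and 129, 126 and 124 FPKM in Ctrl replicates 1, 2 and 3. The groups were far apart (log2 fold change 2.42, SE 0.17, adjusted p = 0.00809 in edgeR's quasi-likelihood test). The log2 fold change lay between 2.36 and 2.46 when each library was left out in turn. In 4 of these 6 edgeR fits the test missed the threshold, with an adjusted p of 0.118 and 0.0674 when replicate 2 or 3 of APEX1-OE was dropped and of 0.21 and 0.207 when replicate 1 or 2 of Ctrl was dropped. Reads of plasmid and chromosomal APEX1 could not be separated. The total counts per library were 28987040, 41009197 and 35234411 in APEX1-OE and 28131955, 34398771 and 35834880 in Ctrl. Keratin genes of the epithelium were abundant, with KRT8 between 2558 and 3562 FPKM and KRT18 between 2011 and 2838 FPKM, as was the metabolic enzyme ALDH1A1, between 686 and 1957 FPKM. AKR1B10 lay between 461 and 856 FPKM, AKR1C1 between 108 and 185 FPKM and CDH1 between 4.52 and 10.7 FPKM, whereas EPCAM stayed between 0.18 and 0.52 FPKM. For blood, endothelium, fibroblasts and muscle, 7 of 9 marker genes had an FPKM value. Those 7 summed to 2.03, 1.81 and 1.90 FPKM in APEX1-OE and 2.25, 1.99 and 1.66 FPKM in Ctrl, most of it CD68. Of the muscle genes, MYH7 had no count outside Ctrl replicate 3, and CKM had at most 3 counts in a library.

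The libraries did not sort by plasmid. Along the main axis of variation over all tested genes (72.6% of the variance), APEX1-OE replicate 1 stood with Ctrl replicates 1 and 2, called the first library set here, and APEX1-OE replicates 2 and 3 stood with Ctrl replicate 3, the second library set. These sets were defined from the data and are not groups of the study. The sums of the mitochondrial members, of the nuclear members and of the nuclear members of each complex are therefore also given within the sets.

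The 13 mitochondrial genes were far more abundant than the nuclear ones. Summed over the mitochondrially encoded members, the level was 23912, 24859 and 27348 FPKM in APEX1-OE and 26490, 27956 and 22656 FPKM in Ctrl. The 88 nuclear members together reached 7474, 6416 and 6974 FPKM in APEX1-OE and 8273, 8038 and 6609 FPKM in Ctrl. The mitochondrial sum was thus 3.67 ± 0.404 times the nuclear sum in APEX1-OE and 3.37 ± 0.147 times in Ctrl (SD, n = 3 libraries each). As a share of all counts, the 13 genes took between 2.58% in Ctrl replicate 3 and 3.10% in Ctrl replicate 2.

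**Figure D1:**
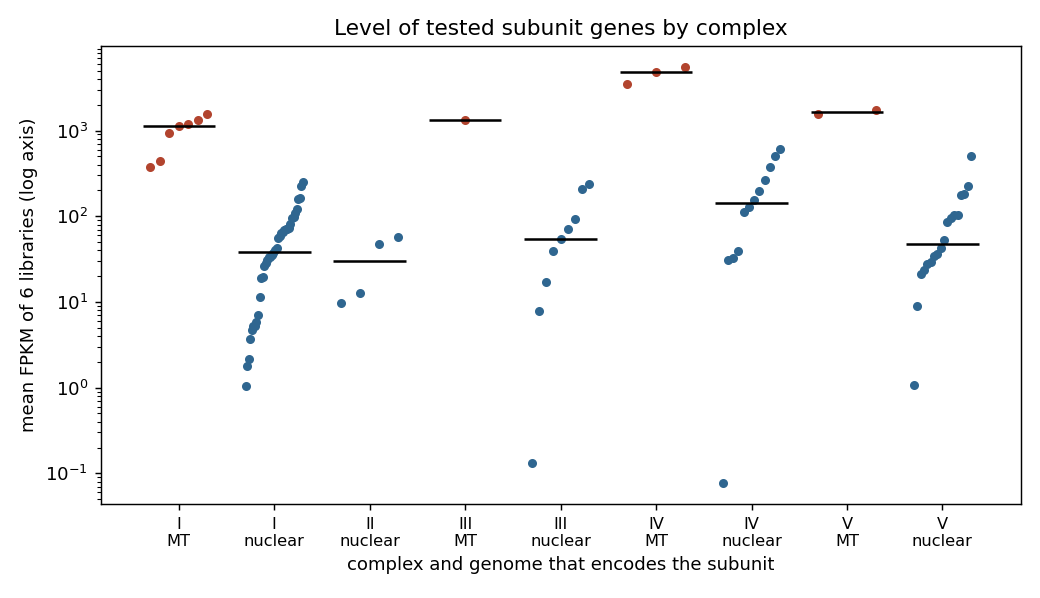
Mean FPKM over the 6 libraries (log axis) of the 94 tested members, by complex and encoding genome; each point is a gene and each bar the median of its column. The median of the 3 mitochondrial genes of complex IV was 4878 FPKM, against 142 FPKM for its 12 tested nuclear genes.

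The catalytic core of cytochrome c oxidase (complex IV), the enzyme that reduces oxygen, led the list. MT-CO1, which carries the oxygen-binding site, averaged 5553 FPKM, MT-CO2 4878 FPKM and MT-CO3 3536 FPKM. MT-CO1 alone supplied 37.4%, 37.6% and 38.7% of the counts of the 13 mitochondrial members in APEX1-OE, and 36.0%, 33.0% and 35.3% in Ctrl. The ATP synthase genes MT-ATP8 and MT-ATP6 had 1739 and 1558 FPKM, and MT-CYB, the cytochrome b of complex III, had 1322 FPKM. Among the complex I genes MT-ND4 was highest (1564 FPKM), and MT-ND6 (439 FPKM) and MT-ND5 (375 FPKM) were lowest. These genes are made from long shared transcripts of the mitochondrial genome, so their levels differed by more than 10 times within common precursors. MT-ND6 is the only member on the light strand, and its messenger is known to lack a long poly(A) tail.

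The 2 genes of the ATP synthase are not separate in the genome. On the GRCh38 mitochondrial sequence, the coding exon of MT-ATP8 overlaps that of MT-ATP6 by 46 bases, and that of MT-ND4L overlaps MT-ND4 by 7 bases. The sequences are shown because each pair shares a messenger, so a read that spans both cannot be given to 1 of them. In capitals stand the start codon of the downstream gene and the stop codon of the upstream gene.
MT-ATP8 and MT-ATP6, plus strand, chrM:8527-8572: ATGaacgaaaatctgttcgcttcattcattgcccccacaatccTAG
MT-ND4L and MT-ND4, plus strand, chrM:10760-10766: ATGcTAA
MT-ATP8 is 207 bases long and the overlap covers 22.2% of it, so its separate level is uncertain.

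Nuclear copies of mitochondrial genes add a second uncertainty. On chromosome 1, the pseudogene MTATP6P1 (chr1:633696-634376) differs from MT-ATP6 at 10 of 681 bases. It received 7867, 12178 and 11697 counts in APEX1-OE and 9326, 11754 and 9788 in Ctrl, against 33816, 49429 and 47590 and 38062, 51960 and 43819 for MT-ATP6. Whether those reads came from the nucleus was not tested. Of all windows of 150 bases along MT-ND2, 15.7% occurred unchanged in an annotated nuclear copy, as did 14.5% of those along MT-CO1 and 1.12% of those along MT-ND1, and 0 windows of the other 10 genes did. Unique mapping can remove reads from such stretches. The 15 nuclear copies in the table summed to between 261 and 377 CPM, where CPM is the count scaled to library size after TMM normalization.

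The sums did not separate the plasmids. The mitochondrial members summed to 31049, 27128 and 28981 CPM in APEX1-OE (mean 29052 ± 1962, SD, n = 3) and to 31026, 32375 and 23553 CPM in Ctrl (28985 ± 4752, SD, n = 3). The groups overlapped, Ctrl replicate 3 was lowest, and the log2 difference of 0.02 was smaller than the pooled SD of 0.19. This difference was -0.13 without Ctrl replicate 3 and -0.05 without APEX1-OE replicate 1, so its sign rested on these libraries. Within the first and the second library set it was -0.03 and 0.25, and with a term for the library set it was 0.11. In FPKM the values within the sets were -0.19 and 0.20, and as percent of all counts -0.10 and 0.18. As in any bulk RNA, fewer transcribing cells and less RNA per cell cannot be told apart. The nuclear members summed to 12547, 9686 and 10366 CPM in APEX1-OE (10866 ± 1495, SD, n = 3) and to 13012, 12821 and 9887 CPM in Ctrl (11907 ± 1752, SD, n = 3). Here too the groups overlapped, and the log2 difference of -0.13 in CPM was within the pooled SD of 0.21. As percent of all counts it was also -0.13, larger in size than the pooled SD of 0.10. In CPM it was -0.25 without APEX1-OE replicate 1 and -0.26 without Ctrl replicate 3. The 3 libraries of the first set were the highest in the nuclear sum, by 0.36 on the log2 scale of CPM over the second set. In summed FPKM this contrast was 0.25, and as percent of all counts it was 0.18. Within the sets the log2 difference of the nuclear sum between APEX1-OE and Ctrl was -0.04 and 0.02 in CPM, and with a term for the library set it was -0.01. The values within the sets were -0.13 and 0.02 in FPKM and -0.12 and -0.05 as percent of all counts, so their sign in the second set depended on the unit.

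**Figure D2:**
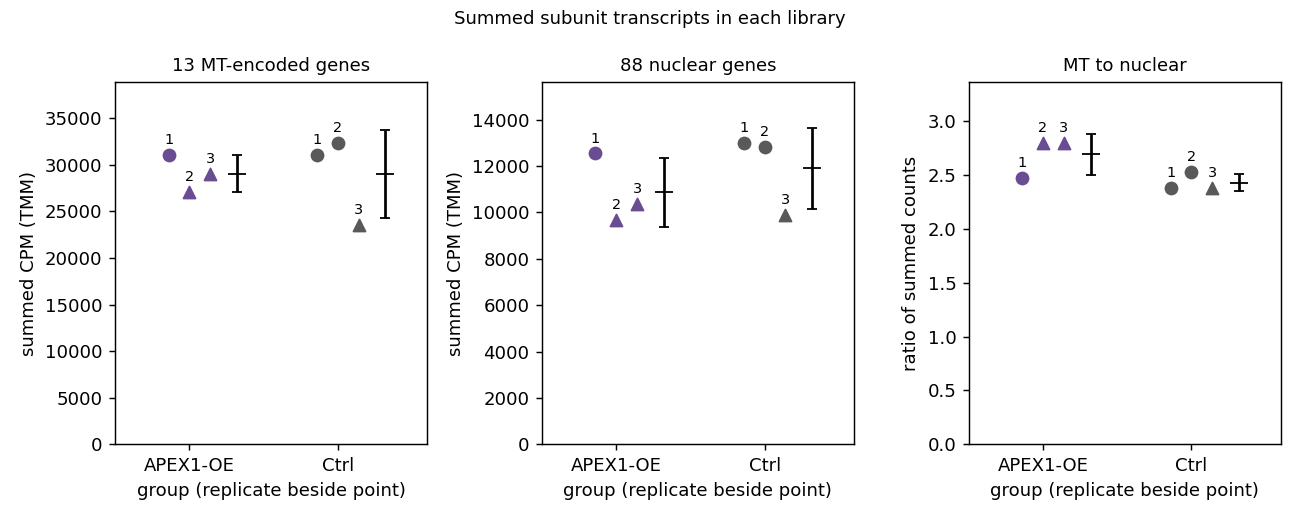
Summed CPM of the 13 mitochondrial and the 88 nuclear members, and the ratio of their counts, in each library (circles, first library set; triangles, second; numbers, replicates); lines and bars give the mean ± SD of 3 libraries. In the ratio, APEX1-OE replicates 2 and 3 (2.80 each) lay above all Ctrl libraries, and APEX1-OE replicate 1 (2.47) lay below Ctrl replicate 2 (2.53).

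The ratio of mitochondrial to nuclear counts needs no scaling between libraries. It was 2.47, 2.80 and 2.80 in APEX1-OE (2.69 ± 0.187, SD, n = 3) and 2.38, 2.53 and 2.38 in Ctrl (2.43 ± 0.0819, SD, n = 3). The log2 difference of 0.14 was larger than the pooled SD of 0.08, although the groups overlapped. It was not alike in the sets, at 0.01 within the first (1 APEX1-OE library against 2 Ctrl libraries) and 0.23 within the second (2 against 1). That contrast was not tested. With a term for the library set the log2 difference of the ratio was 0.12. The medians of the members' own log2 fold changes differed by 0.04 between the genomes. With the set term these medians were 0.07 for the mitochondrial and -0.05 for the nuclear members. Per kilobase of canonical transcript the ratio was 2.49 ± 0.282 in APEX1-OE and 2.29 ± 0.0951 in Ctrl (SD, n = 3), a log2 difference of 0.12 within the pooled SD of 0.13.

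Gene by gene, 94 of the 101 members passed edgeR's filter on low counts, all 13 mitochondrial and 81 nuclear. No member was called at an adjusted p under 0.05, where 1 of 16971 genes over all (0.00589%), APEX1, was called. At an unadjusted p under 0.05 there were 0 members among 118 genes (0.695% of those tested), and DESeq2 called 0 members (0.00311% of all genes) and had 0 at an unadjusted p under 0.05 (0.404% of all genes). The limma test on log2(FPKM + 1) called 0 (0.00841% of all genes) and had 1 of 92 at an unadjusted p under 0.05, NDUFB8, against 0.252% of all genes. In edgeR the smallest unadjusted p of a member was 0.112, also for NDUFB8. The log2 fold changes lay between -0.27 and 0.13 for mitochondrial and between -0.81 and 0.64 for nuclear members, with a median SE of 0.19 and 0.23. Of the nuclear members 72 were below 0 and 9 above, with a median of -0.13. The mitochondrial members had 8 below 0, 5 above and a median of -0.08, and the median over all genes was 0.03.

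With the library set as a term the spread shrank, and the median SE of the members was 0.10. The sets were drawn from these same data, so a smaller spread follows from their construction. The p values of every fit with this term can therefore be too small. The share of all genes called was then 0.0236% at an adjusted p under 0.05, with 0 members, and the smallest adjusted p of a member was 0.346 in edgeR. At an unadjusted p under 0.05 there were 14 of 94 members, 9 higher and 5 lower in APEX1-OE, against 11.6% of all genes. In that fit 53 nuclear members were below 0 and 28 above, with a median of -0.05, and the median of the mitochondrial members was 0.07. When GC content and transcript length were also corrected for, the mitochondrial median was 0.18, with 12 of 13 above 0, and the nuclear median was -0.01. That correction was fitted over all genes, and whether it suits mitochondrial transcripts was not tested. It called 0.131% of all genes and 0 members, and at an unadjusted p under 0.05 it took 8 of 13 mitochondrial and 8 of 81 nuclear members, against 12.2% of all genes. MT-CO1 then had a log2 fold change of 0.31 (SE 0.06, adjusted p = 0.0636 in edgeR), which missed the threshold. Without that correction its value was 0.23 (adjusted p = 0.374 in edgeR) with the library set as a term. With condition only it was 0.13 (SE 0.18). Using the replicate number as a block called 0.0118% of all genes and 0 members, and at an unadjusted p under 0.05 it took 3.31% of all genes and 0 members. Without APEX1-OE replicate 1 edgeR called 0 members, and 9 of 94 (8 lower, 1 higher in APEX1-OE) had an unadjusted p under 0.05, against 7.61% of all genes.

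**Figure D3:**
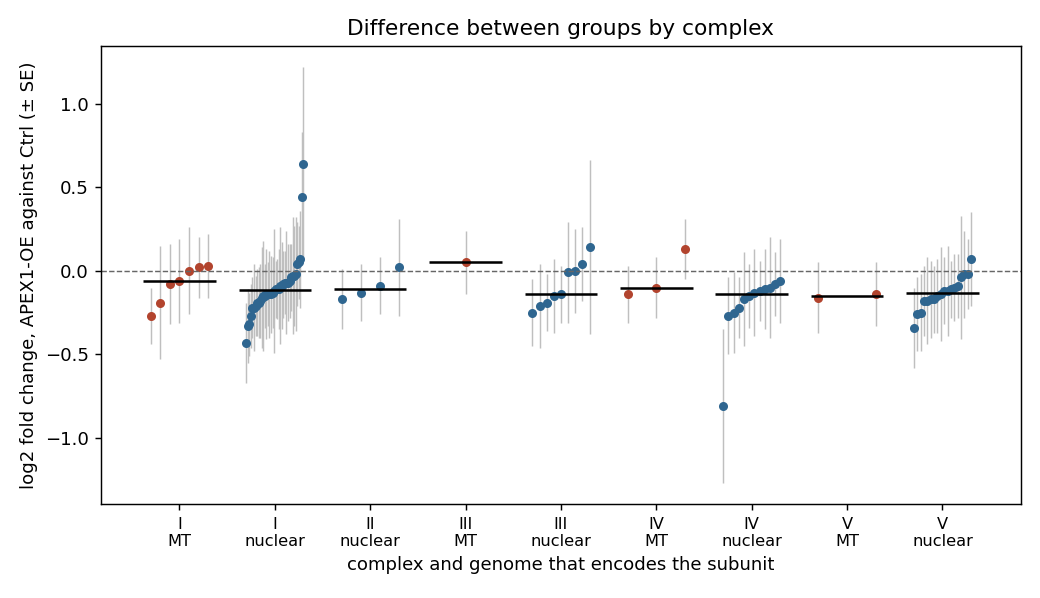
Log2 fold change of APEX1-OE against Ctrl (points, ± SE from edgeR) for the 94 tested members by complex and genome; black bars are medians. The medians of the nuclear columns lie between -0.14 and -0.11, and none of the members passed the test.

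The 2 groups did not overlap in normalized counts for 4 of 94 members (4.26%), all of them lower in APEX1-OE, against 2.01% of all tested genes; 0 members were higher without overlap, against 1.38% of all genes. MT-ND3, a short core subunit of complex I, had 474, 387 and 456 CPM in APEX1-OE and 504, 567 and 514 CPM in Ctrl (log2 fold change -0.27, SE 0.17). NDUFA6, an accessory subunit of complex I, had 38.6, 39.2 and 43.9 CPM in APEX1-OE and 55.0, 49.2 and 47.4 CPM in Ctrl (log2 fold change -0.32, SE 0.19). NDUFA10 had 73.3, 71.4 and 74.8 CPM in APEX1-OE against 79.7, 80.2 and 77.3 CPM in Ctrl. UQCRH, the hinge protein of complex III, had 164, 150 and 185 CPM in APEX1-OE and 195, 186 and 189 CPM in Ctrl. In each of the 4 the gap between the groups was narrower than the range within either group, and in FPKM the groups overlapped for all 4.

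Complex I, the NADH dehydrogenase and the entry point for most electrons, had 46 members, 7 of them mitochondrial. Its nuclear genes summed to 3935, 2825 and 3006 CPM in APEX1-OE and 3879, 3864 and 2866 CPM in Ctrl, and APEX1-OE replicate 1 was the highest of the 6 libraries. Within the library sets the log2 difference was 0.02 and 0.02 in CPM, and -0.05 and -0.04 as percent of all counts. Of the 38 tested nuclear genes 33 were below 0 in log2 fold change and 5 above, with a median of -0.12. NDUFS8, an iron-sulfur subunit, was the most abundant nuclear member of the complex by FPKM (mean 254), followed by NDUFS5 (224) and NDUFB10 (165). NDUFS8 had 370, 201 and 179 CPM in APEX1-OE and 290, 300 and 168 CPM in Ctrl, so that the libraries of a group differed by more than the groups. The smallest log2 fold changes of the complex were those of NDUFB8 (-0.43), NDUFB1 (-0.33) and NDUFA6 (-0.32), and the largest those of NDUFA4L2 (0.64) and NDUFA5 (0.44). NDUFA5 had 9.87, 16.4 and 27.7 CPM in APEX1-OE and 10.4, 12.0 and 17.3 CPM in Ctrl. Its log2 fold change with the library set as a term was 0.10.

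Complex II, succinate dehydrogenase, also works in the citric acid cycle and has no mitochondrially encoded part. SDHA, the flavoprotein, averaged 57.0 FPKM, and SDHB, the iron-sulfur protein, 47.6 FPKM. The membrane anchors SDHC and SDHD were listed at 9.80 and 12.7 FPKM, although the proteins are known to assemble in equal numbers. For SDHC this order depended on the length used. Its counts divided by its FPKM corresponded to a gene length of 13567 bases, when MT-CO1 was taken at 1542 bases, against 1308 bases for its canonical transcript. SDHC had 166, 148 and 153 CPM in APEX1-OE and 174, 177 and 162 CPM in Ctrl, and SDHA had 175, 158 and 154 CPM in APEX1-OE and 180, 180 and 158 CPM in Ctrl. Per kilobase of canonical transcript the means were 125 CPM for SDHC and 62.2 CPM for SDHA. Over the 79 nuclear members for which a length could be worked out this way, it exceeded 2 times the canonical length in 21. FPKM levels of such nuclear genes may therefore be too low when read against the mitochondrial ones, whose lengths matched. Counts per kilobase of canonical transcript may be too high for them if reads outside its exons were counted. Neither was tested.

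The 4 SDH genes summed to 422, 406 and 422 CPM in APEX1-OE and 466, 460 and 423 CPM in Ctrl. In this unit the groups just failed to overlap, but in summed FPKM (106, 126 and 137 against 135, 128 and 130) they overlapped. Within the library sets the log2 difference was -0.13 and -0.03 in CPM, -0.21 and -0.10 as percent of all counts, and -0.31 and 0.01 in FPKM. SDHD was the only one of the 4 with lower mean log2 CPM in the first library set (-0.48), at 22.6, 36.3 and 47.0 CPM in APEX1-OE and 34.8, 30.9 and 38.8 CPM in Ctrl, with APEX1-OE replicate 1 lowest. Its log2 fold change was 0.02 (SE 0.29), and -0.21 with the library set as a term, where those of the other SDH genes were also below 0.

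Complex III, the cytochrome bc1 complex, joins MT-CYB to 9 nuclear members. MT-CYB had 2047, 1741 and 1885 CPM in APEX1-OE and 1947, 2041 and 1494 CPM in Ctrl. The nuclear sum was 1363, 1125 and 1281 CPM in APEX1-OE and 1463, 1421 and 1189 CPM in Ctrl, with a log2 difference of -0.11 (pooled SD 0.15), and of -0.08 and 0.01 within the library sets. As percent of all counts the difference was -0.12 (pooled SD 0.08), and -0.16 and -0.05 within the sets, and in FPKM it was -0.14 (pooled SD 0.11), and -0.21 and -0.03 within them. Among these 9 nuclear members UQCRH (241 FPKM), UQCRQ (208 FPKM) and the core protein UQCRC1 (92.1 FPKM) were the most abundant. CYC1, a gene of the complex that the symbols miss, had 246 FPKM. UQCRC1 and UQCRC2, which form the core together, followed different library patterns. UQCRC1 had 324, 191 and 167 CPM in APEX1-OE and 256, 266 and 166 CPM in Ctrl, highest in the first set. UQCRC2 had 91.6, 126 and 167 CPM in APEX1-OE and 129, 114 and 142 CPM in Ctrl, with its highest 2 values in the second set. UQCRHL, a near copy of UQCRH without introns, had at most 0.546 CPM.

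In complex IV all 12 tested nuclear members had a log2 fold change below 0, with a median of -0.14, and none was called. With the library set as a term 7 were below 0 and 5 above. Their sum, 4 untested genes included, was 3348, 2391 and 2518 CPM in APEX1-OE and 3395, 3392 and 2436 CPM in Ctrl. Within the library sets the log2 difference was -0.02 and 0.01 in CPM, and -0.09 and -0.06 as percent of all counts. COX6A1 (603 FPKM), COX8A (508 FPKM) and COX6B1 (375 FPKM) were the most abundant nuclear members of the complex. COX6A1 had 493, 341 and 337 CPM in APEX1-OE and 512, 532 and 351 CPM in Ctrl (log2 fold change -0.25, SE 0.24).

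Among paralogs of complex IV the ubiquitous forms predominated. COX4I1, the general form of subunit 4, had a mean of 198 FPKM, and COX4I2, known as a lung and hypoxia form, had 3 counts over all 6 libraries. COX7A2 averaged 129 FPKM, COX7A2L, a supercomplex factor, 30.9 FPKM, and the heart and muscle form COX7A1 had 10 counts in all. COX7B had 39.0 FPKM and COX7B2 3 counts, and COX8C had 15 counts beside COX8A. COX6B2, a testis form, had 9, 5 and 6 counts in APEX1-OE and 9, 13 and 12 in Ctrl. Its log2 fold change of -0.81 (SE 0.46), the smallest of all members, rested on those few counts. COX6A2, the muscle form of COX6A1, was not in the table. Differences of such genes were not detectable at this depth.

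NDUFA4, now counted with complex IV by its biochemistry though its symbol places it in complex I here, had 70.7 FPKM. Its hypoxia-inducible relative NDUFA4L2 had 105, 71 and 31 counts in APEX1-OE and 39, 64 and 29 in Ctrl. This was 3.99, 1.67 and 0.834 CPM against 1.45, 1.94 and 0.739 CPM. APEX1-OE replicate 1 stood above the other libraries, the rest overlapped, and the log2 fold change of 0.64 had an SE of 0.58. With the library set as a term it was 1.04 (SE 0.28, adjusted p = 0.346 in edgeR), the largest of the members in that fit.

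Complex V had 22 members. Its nuclear genes summed to 3479, 2940 and 3139 CPM in APEX1-OE and 3809, 3684 and 2974 CPM in Ctrl, a log2 difference of -0.13 (pooled SD 0.16), and of -0.11 and 0.03 within the library sets. As percent of all counts the difference was -0.13 (pooled SD 0.07), and -0.18 and -0.04 within the sets, and in FPKM it was -0.13 (pooled SD 0.11), and -0.20 and 0.01 within them. ATP5B, the catalytic beta subunit, was the most abundant of them (506 FPKM), with 1170, 1059 and 1080 CPM in APEX1-OE and 1309, 1239 and 1017 CPM in Ctrl. The next were ATP5G1 (225 FPKM) and ATP5I (184 FPKM). ATP5I had the smallest log2 fold change of the complex (-0.34, SE 0.24). The 3 genes for the identical mature c subunit of the rotor, ATP5G1, ATP5G2 and ATP5G3, were all expressed, at 225, 103 and 36.2 FPKM. By canonical length their order changed to 295, 457 and 98.4 CPM per kilobase, because the length behind the FPKM of ATP5G2 corresponded to 2244 bases and that of ATP5G3 to 5673 bases. ATP5SL, whose current symbol is DMAC2, is an assembly factor rather than a subunit, and only its older symbol places it in complex V here. It had the only log2 fold change above 0 among the tested nuclear members so counted (0.07, SE 0.28).

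A further 7 members were too low to test, with at most 5 counts in a library: COX4I2, COX7A1, COX7B2, COX8C, ATP5EP2, ATP5L2 and the second of the 2 entries with the symbol NDUFA7 (ENSG00000267855.5).

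For several subunits an overlapping entry of the table held most of the counts. NDUFB8, an accessory subunit of complex I, had 159, 187 and 174 counts in APEX1-OE and 196, 244 and 224 in Ctrl. RP11-411B6.6 (ENSG00000255339), a protein-coding entry on the same strand that covers 72.0% of the canonical NDUFB8 transcript, had 4794, 5135 and 4675 counts in APEX1-OE and 4777, 5752 and 4520 in Ctrl. NDUFB8 thus held 3.84% of the counts of both entries. NDUFA11 held 8.19% of the counts shared with AC024592.12, UQCR11 11.0% with AC005943.2 and ATP5O 16.5% with AP000304.12. How reads in shared exons were assigned is not given, so the separate levels of these 4 subunits are uncertain. Counts of a same-strand entry covering at least 50% of the canonical exon bases were added to the member where that entry was protein-coding, nuclear and not itself a member. This concerned 5 members (NDUFB8, NDUFA11, NDUFA13, ATP5O and ATP5J2-PTCD1), and with it the log2 fold change of NDUFB8 went from -0.43 to -0.14. That of NDUFA11 went from -0.09 to -0.01, and 0 members were called. With the library set as a term, merging took NDUFB8 from -0.31 to 0.06 and NDUFA11 from 0.16 to 0.27, again with 0 members called. This merging was chosen after the counts were seen. The read-through entry ATP5J2-PTCD1, itself a member, had 2820, 2905 and 2526 counts in APEX1-OE beside 2510, 2824 and 2603 for ATP5J2. On the opposite strand, 13 members overlapped a gene with more than 10% of their counts, which matters if strand was not used in counting. Among the 13 were NDUFA4L2 (339 counts over all libraries, beside 29796 for SHMT2) and NDUFB8 (1184 beside 18868 for HIF1AN). The stretches shared were 33 and 17 bases long.

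**Figure D4:**
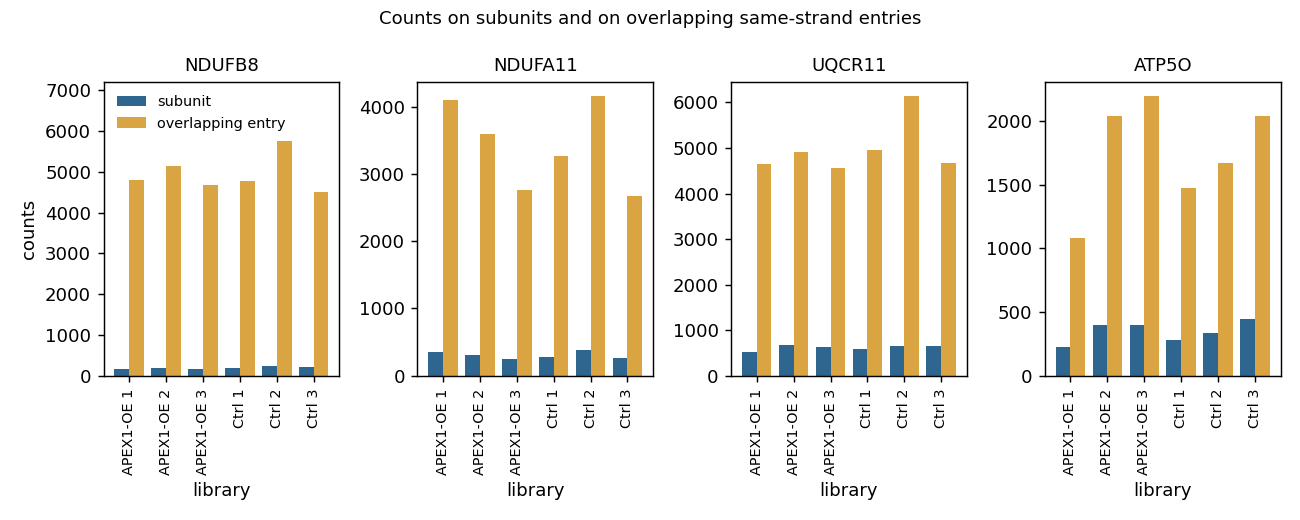
Counts in each library for NDUFB8, NDUFA11, UQCR11 and ATP5O (blue) and for the overlapping same-strand entry of each (yellow); each panel has its own scale from 0. The subunit has the lower bar in every library of the 4 panels, from 3.84% of both bars for NDUFB8 to 16.5% for ATP5O.

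Across the library sets, the nuclear subunits differed along with their base composition. For each gene the mean log2 CPM of the second library set was subtracted from that of the first. The difference was above 0 for 62 of 81 tested nuclear members and below 0 for 19, from -0.89 for NDUFA5 to 1.10 for NDUFA4L2. Over 16746 tested genes it was above 0 for 8159 and below 0 for 8587. The median was -0.03 over these genes and 0.27 over the nuclear members. In the 27 members with the highest GC content (52.9% to 69.5%) all 27 were higher in the first set, with a median of 0.65. The 27 with the lowest (34.6% to 44.2%) had a median of -0.07, with 13 higher in the first set. The correlation with GC content was 0.79 across the 81 nuclear members, as it was 0.79 across 16746 tested genes; genes are not independent replicates, and all points share the same 6 libraries.

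The mitochondrial members cover a narrower range of GC content, 39.6% to 47.7%, and the correlation of -0.05 across the 13 cannot be set against that of the nuclear members. In CPM all 13 were higher in the first set, by 0.06 for MT-ND4L up to 0.84 for MT-ND6, with a median of 0.25. Their range of GC content overlaps those of the lowest and the middle nuclear members. The 27 nuclear members of lowest GC content (34.6% to 44.2%) had a median of -0.07. The 27 of middle GC content (44.9% to 52.8%) had a median of 0.23. In FPKM 11 mitochondrial members were higher and 2, MT-CO1 and MT-ND4L, were not. The difference of the mitochondrial sum was then 0.07 in place of 0.25. MT-ND6 had 400, 200 and 209 CPM in APEX1-OE and 323, 390 and 209 CPM in Ctrl. The 3 libraries of the first set were above the other 3. The mitochondrial ribosomal RNAs ran the opposite way. MT-RNR2, the large ribosomal RNA, had 3222, 4995 and 6297 CPM in APEX1-OE and 3775, 3772 and 5141 CPM in Ctrl. Both ribosomal RNAs together made up 11.9%, 20.4% and 23.7% of the counts of the 13 messengers in APEX1-OE and 13.7%, 13.1% and 24.2% in Ctrl. The part of RNA selection or quality in these patterns was not tested.

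**Figure D5:**
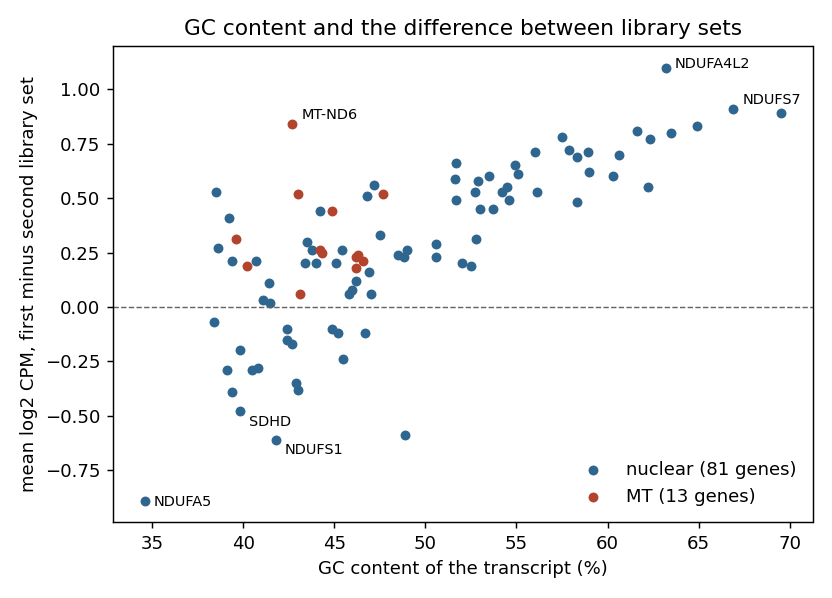
Difference in mean log2 CPM between the first library set (APEX1-OE replicate 1, Ctrl replicates 1 and 2) and the second (APEX1-OE replicates 2 and 3, Ctrl replicate 3) against the GC content of the canonical transcript, for 81 nuclear (blue) and 13 mitochondrial (red) members. Nuclear members range from -0.89 (NDUFA5) to 1.10 (NDUFA4L2), and MT-ND6 stands at 0.84.

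Promoters of nuclear subunits are known for sites of NRF1, ETS factors and YY1. RefSeq promoter windows (GRCh38.p14, 300 bases each) matched 66 of the 88 nuclear members, with 79 windows. Some windows of the same gene overlap, so the shares below are per window and a site can be counted more than once. Searched on both strands, the NRF1 letters GCGCATGC occurred in 19.0% of these windows and in 3.1% of 35116 windows over all genes. The ETS letters CCGGAAG occurred in 26.6% and 10.3%, the YY1 letters AAGATGGC in 16.5% and 2.9%, the SP1 letters GGGCGG in 60.8% and 45.0%, and the TATA letters TATAAA in 7.6% and 11.5%. The ETS and YY1 letters can share their AAG. A match is a description and not a bound site. The median GC content of the windows was 59.3% for members and 58.7% over all genes.

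Windows are printed for 5 members, chosen after their values were seen: NDUFS7 and NDUFB7, higher in the first library set by 0.91 and 0.83, SDHD and NDUFS4, lower in it (-0.48 and -0.35), and SDHB, which held 4 of the 5 motifs. Capitals mark motif letters on either strand, and the strand given is that of the gene.
NDUFS7, plus strand, chr19:1383657-1383956: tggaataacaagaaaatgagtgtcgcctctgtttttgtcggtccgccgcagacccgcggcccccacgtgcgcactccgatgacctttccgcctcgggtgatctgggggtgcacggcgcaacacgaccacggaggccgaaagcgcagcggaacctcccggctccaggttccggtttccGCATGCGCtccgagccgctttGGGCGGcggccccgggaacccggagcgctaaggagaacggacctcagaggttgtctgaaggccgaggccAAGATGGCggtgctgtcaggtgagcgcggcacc
NDUFB7, minus strand, chr19:14572017-14572316: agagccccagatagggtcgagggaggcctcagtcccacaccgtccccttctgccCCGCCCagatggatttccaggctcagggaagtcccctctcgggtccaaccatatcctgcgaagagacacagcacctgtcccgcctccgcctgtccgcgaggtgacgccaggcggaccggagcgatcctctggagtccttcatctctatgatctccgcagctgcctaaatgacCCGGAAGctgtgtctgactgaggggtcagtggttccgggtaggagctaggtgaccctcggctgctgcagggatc
SDHD, plus strand, chr11:112086623-112086922: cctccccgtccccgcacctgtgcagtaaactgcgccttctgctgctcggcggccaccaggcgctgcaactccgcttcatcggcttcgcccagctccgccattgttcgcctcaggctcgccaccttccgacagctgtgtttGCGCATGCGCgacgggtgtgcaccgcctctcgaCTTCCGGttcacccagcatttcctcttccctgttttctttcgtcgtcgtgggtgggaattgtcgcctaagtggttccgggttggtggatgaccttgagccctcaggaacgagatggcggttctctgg
NDUFS4, plus strand, chr5:53560389-53560688: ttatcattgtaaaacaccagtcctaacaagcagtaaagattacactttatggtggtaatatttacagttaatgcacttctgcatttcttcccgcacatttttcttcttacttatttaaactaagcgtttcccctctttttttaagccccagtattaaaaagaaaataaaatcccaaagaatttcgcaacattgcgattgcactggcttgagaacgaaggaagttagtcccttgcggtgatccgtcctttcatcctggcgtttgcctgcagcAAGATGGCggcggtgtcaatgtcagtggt
SDHB, minus strand, chr1:17053983-17054282: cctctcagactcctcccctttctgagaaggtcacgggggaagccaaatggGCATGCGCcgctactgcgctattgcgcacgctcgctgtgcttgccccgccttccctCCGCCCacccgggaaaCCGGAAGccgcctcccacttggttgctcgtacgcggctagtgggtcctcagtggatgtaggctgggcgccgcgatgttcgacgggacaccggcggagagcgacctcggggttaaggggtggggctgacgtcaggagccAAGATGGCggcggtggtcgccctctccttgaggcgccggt
NRF1 letters were found in both NDUFS7 and SDHD, and YY1 letters in both NDUFS7 and NDUFS4, although the members of each pair had opposite library patterns. Whether the letters and the library pattern go together over all windows was not tested. NDUFS7, a subunit of the hydrophilic arm of complex I, had 118, 61.2 and 50.9 CPM in APEX1-OE and 95.1, 100 and 54.2 CPM in Ctrl. NDUFS4, an accessory subunit of the same arm, had 20.2, 28.0 and 35.4 CPM in APEX1-OE and 28.1, 24.2 and 28.7 CPM in Ctrl. The GC content of their transcripts was 66.9% and 42.9%.

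Of the other genes that serve the same machinery, none was called. The lists held 173 genes, all of them tested, and at an unadjusted p under 0.05 there were 0 in edgeR and 0 in DESeq2. With the library set as a term 0 were called, and 18, all higher in APEX1-OE, had an unadjusted p under 0.05, against 11.6% of all genes, of which 1461 were higher and 512 lower. Among structural proteins that the symbols miss, cytochrome c (CYCS) had 84.5, 134 and 182 CPM in APEX1-OE and 106, 107 and 136 CPM in Ctrl. CYC1, the cytochrome c1 of complex III, had 570, 310 and 260 CPM in APEX1-OE and 436, 454 and 255 CPM in Ctrl, highest in the first library set.

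The 78 tested proteins of the mitochondrial ribosome, which translates the 13 messengers, had a median log2 fold change of -0.03, with 25 above 0 and 53 below. They summed to 6885, 5152 and 4973 CPM in APEX1-OE and 6397, 6237 and 4729 CPM in Ctrl. Relative to the nuclear subunits this was 54.9%, 53.2% and 48.0% in APEX1-OE and 49.2%, 48.6% and 47.8% in Ctrl. The groups overlapped, with a log2 difference of 0.10 above the pooled SD of 0.07. Within each library set the APEX1-OE libraries lay above those of Ctrl, by 0.17 in the first and 0.08 in the second, which was not tested. The 50 assembly factors had 25 on each side of 0. The 27 genes of mitochondrial genome expression had 20 above 0 and 7 below, with a median of 0.09, and a median of -0.05 with the library set as a term. TFAM, which packages mitochondrial DNA and starts its transcription, had 20.2, 41.1 and 51.9 CPM in APEX1-OE and 20.3, 22.2 and 37.8 CPM in Ctrl (log2 fold change 0.50, SE 0.39). Its highest 3 libraries were those of the second set. POLRMT, the mitochondrial RNA polymerase, had 152, 92.8 and 79.1 CPM in APEX1-OE and 125, 121 and 78.1 CPM in Ctrl, the reverse order of the sets. Among 11 nuclear regulators 9 were above 0, with a median of 0.08. NRF1 had 14.8, 13.2 and 12.4 CPM in APEX1-OE and 11.7, 13.3 and 11.6 CPM in Ctrl, and PPARGC1A, the coactivator of mitochondrial biogenesis, had at most 0.815 CPM.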

How the data were processed

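Polyadenylated RNA of A549 cells was sequenced in 6 libraries. The authors trimmed the reads, aligned them to GRCh38 with tophat2, and deposited counts per gene, not normalized, and FPKM, from uniquely mapped reads; how reads were counted, against which annotation and with or without strand, is not stated. The members and lists were chosen with earlier results of these data known. After filterByExpr (at least 10 counts, total of at least 15) 16971 genes were scaled by TMM and fitted with edgeR 4.0.16 (quasi-likelihood, robust, condition only) in R 4.3.3, with sums and figures from Python 3.11.15, with Benjamini-Hochberg adjustment at 0.05; the script was tested on simulated data. Sums over members carry no test. Named genes are the mitochondrial and SDH members, the 3 highest by FPKM in each other complex, paralog sets, the 5 largest and 5 smallest fold changes, and members without overlap; others were chosen after their values were seen. GC content and lengths came from canonical transcripts of GENCODE release 44. Alternatives used DESeq2 1.42.0, limma 3.58.1 on log2(FPKM + 1) and log2(FPKM + 0.1), other filters and normalizations, left-out libraries, the replicate block and the library set, with and without a spline of 5 degrees of freedom on GC content and length. Splicing, the clinical samples and the values of the supplementary tables were left out, since the levels of the subunits were the question.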

Additional observations from a re-analysis of the deposited data

How the results depend on the processing

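No member and no other mitochondrial gene was called at an adjusted p under 0.05 in any of the fits run. Without APEX1-OE replicate 2 or 3 or Ctrl replicate 1 or 2 no gene was called at all, APEX1 included, so these 4 fits say nothing about the members. At an unadjusted p under 0.05 the edgeR test had 0 members with all libraries, 9 (8 lower, 1 higher) without APEX1-OE replicate 1, and 0 without each of the other 5. The log2 difference of the mitochondrial-to-nuclear ratio (0.14) was 0.04 when taken from the medians of the members' log2 fold changes; the cause was not tested. Leaving out each library in turn gave between 0.11 and 0.20 for this ratio, between -0.26 and -0.05 for the nuclear sum, and between -0.13 and 0.10 for the mitochondrial sum, where leaving out APEX1-OE replicate 1 (-0.05) or Ctrl replicate 3 (-0.13) turned the sign, as did upper quartile scaling (-0.02), summed FPKM (-0.02) and the median of fold changes (-0.08). With the replicate block the differences were 0.14, -0.13 and 0.02. Whether the replicate numbers pair the libraries cannot be told from these values. Same-numbered libraries correlated at 0.607, -0.521 and 0.70 in their deviations from the group means, and those numbered 2 lay in different library sets. The block called 0 members, as did the fit without it. Over all genes the median SE was 0.25 with the block and 0.3 with condition only. For the 45 tested members picked by the naming rules given above, 939 fold changes under other settings held 0 calls and 95 changes of sign. Members named only after their values were seen are not in this tally. Adding the nuclear copies (0.01) or the read-through entries (-0.13), both chosen after seeing the data, left the sums within the spread between libraries. Members under 10 counts in a library were not measurable at this depth.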
